A study of Mus musculus with 2 samples.

Results

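The interferon and RNA-sensing genes described here were 9 of the 22556 genes in the table, taken by symbol as a receptor chain, sensors, an adaptor, transcription factors and a response gene of the interferon system: Ifnar1, Ddx58, Ifih1, Tlr3, Mavs, Irf3, Irf7, Irf1 and Isg15. All 9 symbols were found. The rule took them by name, as a system known to be weak in embryonic stem (ES) cells, and sets no threshold on a measured value. Messenger RNA was sequenced from female mouse ES cells of the iXist-ChrX-Dom line, derived from a Dom/129S x Cast cross and engineered so that Xist on the Dom/129S chromosome is driven by a TetOn promoter. The cells were untreated (0 h, without doxycycline) and were kept in serum with LIF on inactivated fibroblast feeders, which were removed by pre-plating before the experiment. The series holds 1 group of 2 replicates from 1 clonal line, so the levels are those of uninduced cells and there is no comparison between treatments. The labels do not say that the replicates were separate cultures, so the spread between them may be technical.

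In this system, type I interferon outside the cell is bound by a receptor of the chains Ifnar1 and Ifnar2, whose kinases Jak1 and Tyk2 activate STAT factors. With Irf9, these switch on interferon-stimulated genes. Viral RNA is detected in the cytosol by Ddx58 (RIG-I) and Ifih1 (MDA5), which signal through the mitochondrial protein Mavs, and in endosomes by Tlr3. Both routes lead to kinases that activate Irf3 and Irf7, the factors that start transcription of the interferon genes. Pluripotent cells are known for a muted interferon response compared with differentiated cells.

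The libraries held 23716499 counts (replicate 1) and 20275749 counts (replicate 2). Where a gene has none, up to 3 counts remain possible, which is 0.126 and 0.148 counts per 1000000 (CPM). Intervals and these limits cover counting error only. The samples carry a cell type label that names a passage from mESC to NPC (neural precursor cell), whereas 15 of 15 ES cell markers and 1 of 10 neural precursor markers, Nes, reached 1 transcript per 1000000 (TPM). TPM is the count per kilobase scaled to 1000000 per library, here with the deposited length, which spans exons and introns (span TPM). An exonic length gave a second value (exonic TPM), by which 14 of the 15 ES cell markers and 1 neural precursor marker reached 1 TPM. Fibroblast markers, which feeder cells would carry, reached 1 span TPM for 2 of 17 genes and summed to 10.9 span TPM in replicate 1 and 4.15 in replicate 2. The 2 genes were Mmp2, with 133 and 53 counts, and Thy1, with 32 and 2. Of the other fibroblast markers, named after their values were seen, Fbn1 had 251 and 187 counts, Col1a1 had 4 and 5, Col3a1 had 0 and 1, and Postn had 0 and 1, while Lum had 0 in both. Leukocyte markers reached 1 span TPM for 2 of 9 genes, Cd68 with 71 and 14 counts and Laptm5 with 103 and 57, and Ptprc, Csf1r and Cd14 had 0 counts in both libraries. The part of such cells in the members' levels was not tested. Primitive endoderm markers reached 1 span TPM for 3 of 8 genes. In bulk RNA, fewer cells with a transcript and less of it per cell cannot be told apart.

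The 9 genes ran from well expressed to not detected. Ifnar1 stood highest, at 39.1 ± 1.94 span TPM (SD, n = 2), and Irf7 and Isg15 had no count in either library. Of the 9 genes, 6 reached 1 span TPM as the mean of the replicates, against 52.7% of all genes, and the same number did so with exonic length. Their median was 4.93 span TPM against 1.35 for all genes, and 2.82 exonic TPM against 1.85. The share with 0 counts in both libraries was 2 of 9, against 21.1% of all genes. Both medians of the members were above those of all genes. The plot of levels by library shows their range over both lengths.

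**Figure D1:**
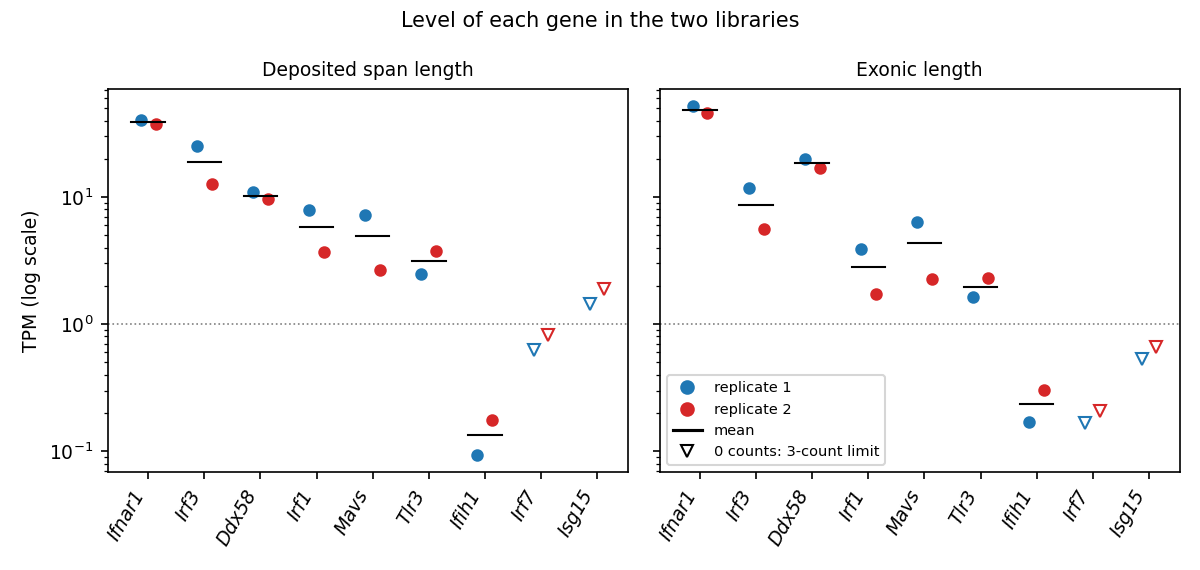
TPM of the 9 genes on a log axis, with the deposited span length (left) and with exonic length (right), for replicate 1 (blue) and replicate 2 (red), with the mean of the 2 replicates as a bar. Open triangles mark the level that 3 counts would give where the count was 0 (Irf7 and Isg15), and the dotted line marks 1 TPM. Ifnar1 is highest on both lengths, and Ifih1 is the lowest gene with a count.

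Ifnar1, the chain of the type I interferon receptor that associates with Tyk2, lies on the plus strand of chromosome 16 (mm10, chr16:91485214-91510522). It had 1518 counts in replicate 1 and 1078 in replicate 2, or 40.4 and 37.7 span TPM. Of all genes, 84.5% had a lower mean span TPM and 82.8% a lower mean exonic TPM. The exonic level was 48.6 ± 4.27 TPM (SD, n = 2). Its partner chain Ifnar2, named after its values were seen, had 737 and 464 counts. Ifnar1 was 2.67 times as high as Ifnar2 per span length in replicate 1 (95% interval 2.44 to 2.92) and 3.01 times in replicate 2 (2.70 to 3.36). With exonic length these ratios were 1.67 and 1.89, so Ifnar1 was the higher chain in both libraries and on both lengths. All 12 genes of the receptor and JAK-STAT list reached 1 span TPM. The highest apart from Ifnar1 were Irf9, a DNA-binding factor that acts with Stat2, at 23.7 ± 4.07 span TPM, and the receptor kinase Jak1 at 17.8 ± 0.288 (SD, n = 2). With exonic length Jak1, at 79.1 exonic TPM, was above Ifnar1 and Irf9 stood at 8.89.

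No count fell in any interferon gene. All 21 genes of the ligand list, the type I, II and III interferons, had 0 counts in both libraries. Many of them share sequence with other genes, so their counts are uncertain: of the 50-base words of the transcript, 75.1% in Ifnz and 67.4% in Ifna1 were found in transcripts of other genes too. Ifnb1, the fibroblast-type interferon, shares none.

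The cytosolic sensors were far apart. Ddx58, which recognises short RNA with a 5′ triphosphate, lies on the minus strand of chromosome 4 (mm10, chr4:40203776-40239825) and had 583 and 393 counts, or 10.9 and 9.65 span TPM. Ifih1, which recognises long duplex RNA, lies on the minus strand of chromosome 2 (mm10, chr2:62595792-62646255) and had 7 and 10 counts, or 0.0935 and 0.175 span TPM. Ddx58 was thus above 70.7% of all genes and Ifih1 above 32.8%. The Ddx58 to Ifih1 ratio of span TPM was 117 in replicate 1 (95% interval 56.2 to 291) and 55.0 in replicate 2 (29.6 to 116), and with exonic length it was 118 and 55.5. The lower bounds lay far above a ratio of 1 in both libraries, although 17 counts in total stand behind the Ifih1 level.

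Tlr3, the endosomal receptor for duplex RNA, lies on the minus strand of chromosome 8 (mm10, chr8:45395664-45410539) and had 55 and 63 counts. Its level was 2.49 and 3.75 span TPM, and 1.98 ± 0.489 exonic TPM (SD, n = 2). It therefore lay between the cytosolic sensors on both lengths, with no overlap of the ranges of the 2 libraries. Tlr7 and Tlr8, the endosomal receptors for single-stranded RNA, had 0 counts in both libraries. Of the 12 RNA sensors listed, 7 reached 1 span TPM, led by Oas1a, a synthase of 2′-5′ oligoadenylates, at 65.1 ± 4.16 and the RNA-activated kinase Eif2ak2 (PKR) at 49.5 ± 4.30 (SD, n = 2). Oas1a shares 57.6% of its transcript's 50-base words with other genes, so its value is uncertain, whereas Eif2ak2 shares 0.352%.

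Mavs, the mitochondrial adaptor to which Ddx58 and Ifih1 both signal, lies on the plus strand of chromosome 2 (mm10, chr2:131234062-131248024). It had 149 counts in replicate 1 and 42 in replicate 2, or 7.19 and 2.66 span TPM, and replicate 1 was the higher. Its mean of 4.93 ± 3.20 span TPM (SD, n = 2) was above 62.8% of all genes. Ticam1 (TRIF), the adaptor through which Tlr3 signals and named after its values were seen, had 1 count in replicate 1 and 0 in replicate 2. Per span length, Mavs was 78.0 times as high as Ticam1 in replicate 1 (95% interval 13.8 to 3100) and at least 7.33 times in replicate 2, against a limit of 3 counts. Among the 15 adaptors and kinases, 12 reached 1 span TPM, and the highest were Azi2 (NAP1), an adaptor of the kinase Tbk1, at 92.4 ± 16.1 and the ubiquitin ligase Traf6 at 28.5 ± 1.10 (SD, n = 2). With exonic length Azi2 stood at 110 TPM and Traf6 at 20.0, and Tbk1 at 68.9, Tank at 66.1, Ikbkg at 40.7 and Traf3 at 24.6, named after their values were seen, lay between them.

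The interferon regulatory factors divided in a similar way. Irf3, the factor held latent in most cell types, lies on the plus strand of chromosome 7 (mm10, chr7:44997647-45002848) and had 194 and 74 counts, or 25.1 and 12.6 span TPM. Irf7, the related factor that interferon itself raises in most cells, lies on the minus strand of the same chromosome (chr7:141263182-141266424) and had 0 counts in both libraries. For Irf7, a count of 0 allows up to 0.624 and 0.819 span TPM in replicates 1 and 2. Irf3 was at least 40.3-fold higher than Irf7 per span length in replicate 1 and at least 15.4-fold in replicate 2, taking 3 counts per library as the limit. Irf1, a factor induced by interferon gamma, lies on the plus strand of chromosome 11 (mm10, chr11:53770013-53778374) and had 98 and 35 counts, or 7.90 and 3.70 span TPM. Irf3 was 3.18 times as high as Irf1 in replicate 1 (95% interval 2.48 to 4.10) and 3.40 times in replicate 2 (2.24 to 5.24), so the ratio held while both genes were lower in replicate 2. Of the 9 interferon regulatory factors, 4 reached 1 span TPM, among them Irf1, Irf3 and Irf9.

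Isg15, a ubiquitin-like protein and a widely used readout of interferon signalling, lies on the minus strand of chromosome 4 (mm10, chr4:156199423-156200818) and had 0 counts in both libraries. Because the gene is short, 0 counts allow up to 1.45 and 1.90 span TPM, or 0.528 and 0.656 exonic TPM, so a level of 1 span TPM lies within what 0 counts in a single library allow. Among the 6 genes of the ISG15 conjugation list, 2 reached 1 span TPM: the ligase Trim25, which also ubiquitinates Ddx58, at 35.0 ± 7.80, and the conjugating enzyme Ube2l6 at 6.53 ± 0.0574 (SD, n = 2). Uba7, the activating enzyme, and named after its values were seen, had 0 and 2 counts. Of 29 interferon-stimulated genes in the table, 17 reached 1 span TPM, against 52.7% of all genes, and 15 reached 1 exonic TPM, against 55.3%. Their median was 2.03 span TPM against 1.35 for all genes, and 1.35 exonic TPM against 1.85. Isg15 was the 1 gene with no count in either library, and 19 of the 29 had at least 10 counts in total. Of those with fewer, named after their values were seen, Ifit1 had 3 and 4 counts, Ifit3 1 and 1, Usp18 2 and 1, and Oasl1 3 and 0. The highest by the mean of the replicates were the membrane proteins Ifitm2, at 1598 and 931 span TPM in the 2 libraries, and Ifitm1, at 211 and 26.6. Ifitm2 shares 48.5% of its 50-base words with other genes, and Ifitm1 shares 6.36%. Ifitm1 had 750 counts in replicate 1 and 72 in replicate 2, so its level differed widely between the libraries. In replicate 2, Ifitm3 at 39.0 span TPM and Dtx3l at 34.2, both named after their values were seen, were above it.

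The remaining groups of the pathway were mostly detected. Of 7 genes for editing or clearing nucleic acids, 6 reached 1 span TPM, led by Rnaseh2b, a subunit of ribonuclease H2, at 59.8 ± 2.46 and the deoxynucleotide triphosphohydrolase Samhd1 at 17.5 ± 3.34 (SD, n = 2). Of 5 feedback inhibitors, 4 did so, led by the JAK inhibitor Socs3 at 139 ± 48.7 and the phosphatase Ptpn2 at 50.3 ± 5.75 (SD, n = 2). With exonic length their order turned, with Ptpn2 at 188 and Socs3 at 34.5 exonic TPM. Pias1, named after its values were seen, lay between them at 45.7 exonic TPM.

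**Figure D2:**
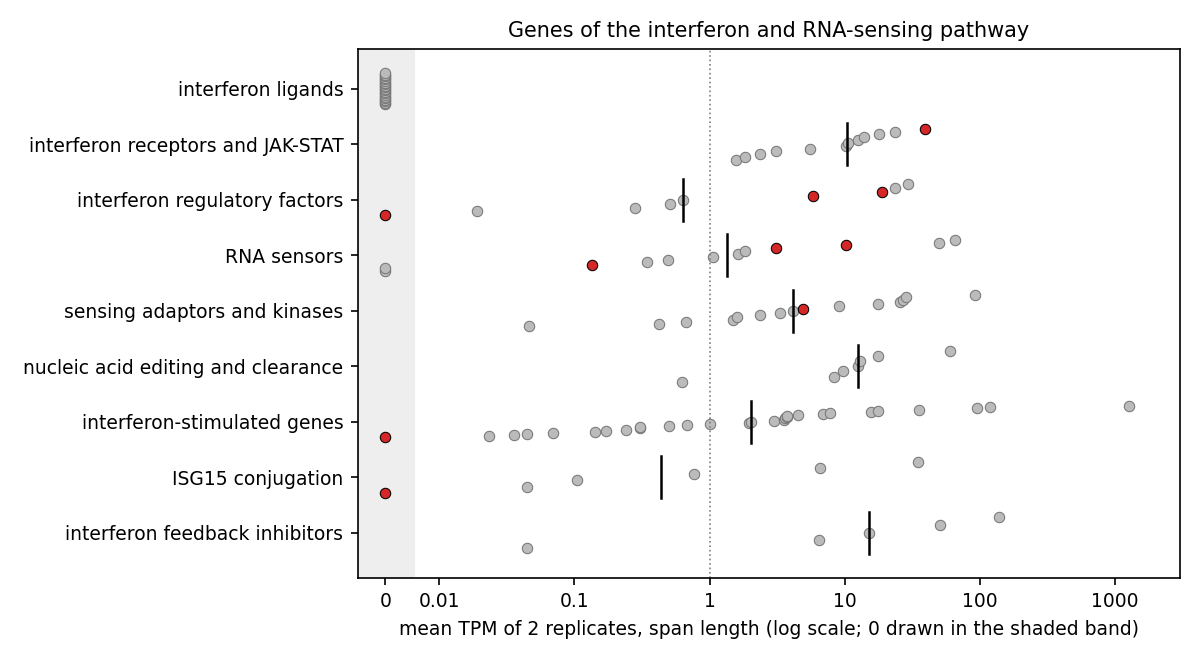
Mean span TPM of 2 replicates for each gene of 9 pathway lists (log axis, genes with 0 counts in both libraries drawn in the shaded band), with the 9 members in red, other genes in grey and the median of each list as a black bar where it is above 0. All 21 ligands are at 0, all 12 receptor and JAK-STAT genes lie above the dotted line at 1 TPM, and Irf7 and Isg15 are the members at 0.

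In order of mean span TPM the members ran Ifnar1, Irf3, Ddx58, Irf1, Mavs, Tlr3 and Ifih1, with Irf7 and Isg15 at 0 counts. The ranges of the 2 libraries did not overlap between Ifnar1 and Irf3, Irf3 and Ddx58, Ddx58 and Irf1, or Tlr3 and Ifih1. The neighbours Irf1 and Mavs, and Mavs and Tlr3, overlapped and were not told apart. In replicate 2, Tlr3 at 3.75 span TPM was above Irf1 at 3.70 and Mavs at 2.66. With exonic length Ddx58 moved above Irf3, at 18.4 ± 2.29 against 8.69 ± 4.38 exonic TPM (SD, n = 2), and the neighbours Irf3 and Mavs, Mavs and Irf1, and Irf1 and Tlr3 overlapped. The span of Ddx58 was 10.7% exonic and that of Irf3 42.1%. The order of these 2 genes therefore depended on the length used, whereas the first place of Ifnar1 and the places of Ifih1, Irf7 and Isg15 did not. The study's methods describe these mRNA data as holding very few reads from introns, so span length places genes with a small exonic share lower. With exonic length the ranges of Ddx58, 16.8 to 20.0 TPM, and Irf3, 5.59 to 11.8, did not overlap.

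**Figure D3:**
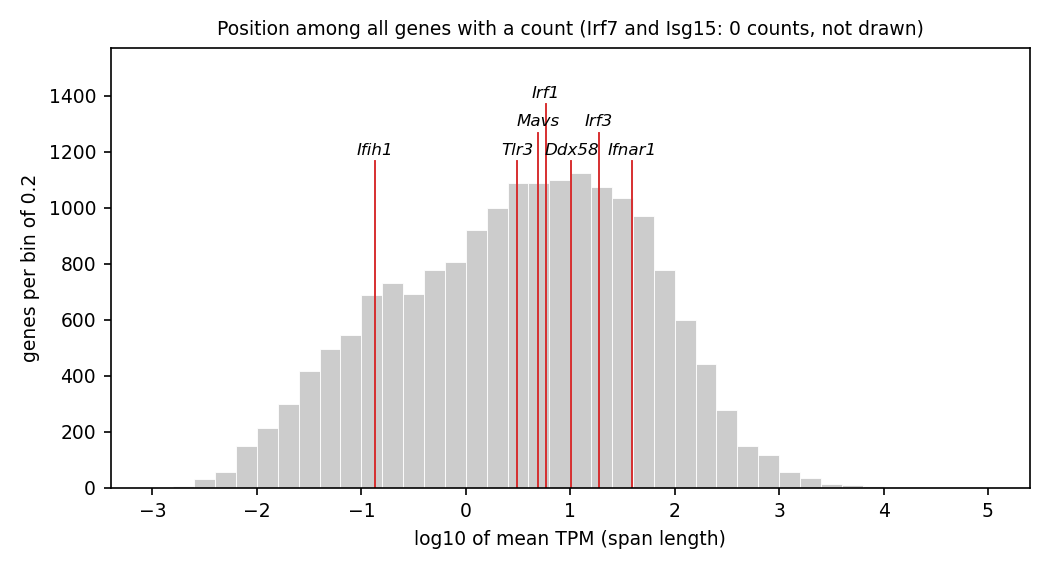
Histogram of the log10 mean span TPM of all genes with a count (grey bars, bins of 0.2 log10 units), with the 7 detected members as red lines. From Tlr3 upwards 6 members lie above the all-gene median of 1.35 TPM, and Ifih1 lies below it at 0.134 TPM.

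The promoters were compared for the short repeats through which interferon-driven factors act, since Isg15 and Irf7 had no counts. RefSeq promoter windows (GRCm38.p6, 250 bases before to 50 after the start) matched all 9 members, with 10 windows because Irf1 has 2. The first motif was GAAA, any 2 bases, GAAA, which is the core of an interferon-stimulated response element, and the second was TTC, any 3 bases, GAA, to which STAT dimers bind. Both were searched on both strands. The first was found in 3 of 10 windows and in 3.44% of 32851 windows of all genes, and the second in 2 of 10 and in 8.30%. Isg15 held 3 overlapping copies of the first motif, beginning 78 bases before the start, and 0.225% of all windows held 2 or more. Ddx58 and Ifih1 each held 1 copy that began after the start, at positions 3 and 33. The second motif lay 90 bases before the first start of Irf1, and in Ifnar1 it ran across the start. Irf7, Tlr3, Mavs and Irf3 held neither motif in these windows. Bases just after the Ifnar1 start were not found in a GENCODE transcript of that gene, whereas those of the other windows were found in theirs. The 250 bases before the start are shown for Isg15 and Irf1, with the matches in capitals, and for Irf7, with none.
Isg15 (chr4:156200819-156201068, minus strand): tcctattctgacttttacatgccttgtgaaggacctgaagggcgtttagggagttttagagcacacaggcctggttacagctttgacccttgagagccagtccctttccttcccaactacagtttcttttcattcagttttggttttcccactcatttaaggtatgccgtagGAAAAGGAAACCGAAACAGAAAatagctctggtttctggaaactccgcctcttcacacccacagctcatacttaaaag
Irf1 (chr11:53769764-53770013, plus strand): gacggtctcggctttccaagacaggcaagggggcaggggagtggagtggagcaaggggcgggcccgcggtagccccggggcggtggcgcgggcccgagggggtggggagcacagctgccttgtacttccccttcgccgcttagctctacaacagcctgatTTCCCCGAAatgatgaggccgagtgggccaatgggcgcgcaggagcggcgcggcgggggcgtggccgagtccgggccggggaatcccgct
Irf7 (chr7:141266425-141266674, minus strand): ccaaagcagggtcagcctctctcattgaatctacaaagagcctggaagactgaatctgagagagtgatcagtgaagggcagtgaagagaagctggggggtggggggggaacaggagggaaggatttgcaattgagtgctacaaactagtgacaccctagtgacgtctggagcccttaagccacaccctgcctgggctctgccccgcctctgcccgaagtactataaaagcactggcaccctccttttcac
The Isg15 run of 22 capitals holds the 3 overlapping copies and the Irf1 run of 9 the single one. A match in these letters is a description and not a site shown to be bound. The windows also differed in CpG number: Isg15 held 6 and Irf7 7, Tlr3 10, Ifih1 14, Ddx58 15, Irf3 18, Mavs 19, Ifnar1 26, and the Irf1 windows 32 and 43, beside a median of 7 over all windows. The members with 0 counts were those with the fewest CpGs, and Ifnar1, the highest, held the most apart from Irf1. Level did not follow CpG number throughout: Ddx58 and Ifih1, with 15 and 14, were far apart in level. Irf1, with the most, stood below Irf3 and Ddx58 on both lengths. This is a description over 9 genes, to which no test was applied.

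The replicates were compared gene by gene by setting the 2 counts against the library totals in an exact binomial test (two-sided), which compares these 2 libraries and not conditions. Of the 7 members with at least 10 counts in total, 5 differed at an adjusted p of 0.05, all of them lower in replicate 2. Over all 14536 genes tested, 60.8% differed and 45.7% were lower in replicate 2. Beside these shares, 5 of 7 is no result particular to the members. The median log2 CPM ratio of replicate 2 to replicate 1 was −0.34 for the 7 members and −0.31 for all genes tested.

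Mavs differed most, with 6.28 CPM in replicate 1 and 2.07 in replicate 2, a log2 ratio of −1.59 (95% exact interval −2.13 to −1.10, adjusted p = 2.7e-11, exact binomial test). Irf1 had 4.13 and 1.73 CPM, a log2 ratio of −1.25 (−1.86 to −0.69, adjusted p = 9.5e-06, exact binomial test). Irf3 had 8.18 and 3.65 CPM, a log2 ratio of −1.16 (−1.57 to −0.77, adjusted p = 3.4e-09, exact binomial test). These 3 genes had transcripts of 52.8% to 56.7% GC. Ddx58 had 24.6 and 19.4 CPM, a log2 ratio of −0.34 (−0.53 to −0.16, adjusted p = 0.00065, exact binomial test). Ifnar1 had 64.0 and 53.2 CPM, a log2 ratio of −0.27 (−0.38 to −0.15, adjusted p = 8.9e-06, exact binomial test). For these 2 genes the ratio was close to the median of all genes. Tlr3 had 2.32 and 3.11 CPM, a log2 ratio of 0.42 (−0.12 to 0.97, adjusted p = 0.17, exact binomial test). Ifih1 had 0.295 and 0.493 CPM, a log2 ratio of 0.71 (−0.80 to 2.37, adjusted p = 0.42, exact binomial test). Neither passed the threshold, and the wide intervals do not show that the libraries were alike.

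The ratios moved with GC content. Tlr3 and Ifih1, whose transcripts have 42.8% GC or less, were the members with ratios above 0. A trend in GC fitted over autosomal genes gave an expected log2 ratio of 0.21 for Tlr3, 0.05 for Ifih1, −0.21 for Ddx58, −0.45 for Ifnar1, −0.61 for Irf1, −0.66 for Mavs and −0.75 for Irf3. Tested against this trend, 2 members differed where 45.6% of all genes did: Mavs was lower in replicate 2 than the trend, at −0.93 on the log2 scale (adjusted p = 0.00036, exact binomial test), and Ifnar1 was higher than the trend, at 0.19 (adjusted p = 0.0039, exact binomial test). With TMM factors, 4 members differed where 57.7% of all genes did: Irf1, Irf3 and Mavs lower in replicate 2 and Tlr3 higher (adjusted p = 0.022, exact binomial test). With DESeq2 size factors, 4 members differed, 3 lower and 1 higher, where 57.8% of all genes did. Mavs was the 1 member called lower under total counts, both sets of factors and the GC trend.

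**Figure D4:**
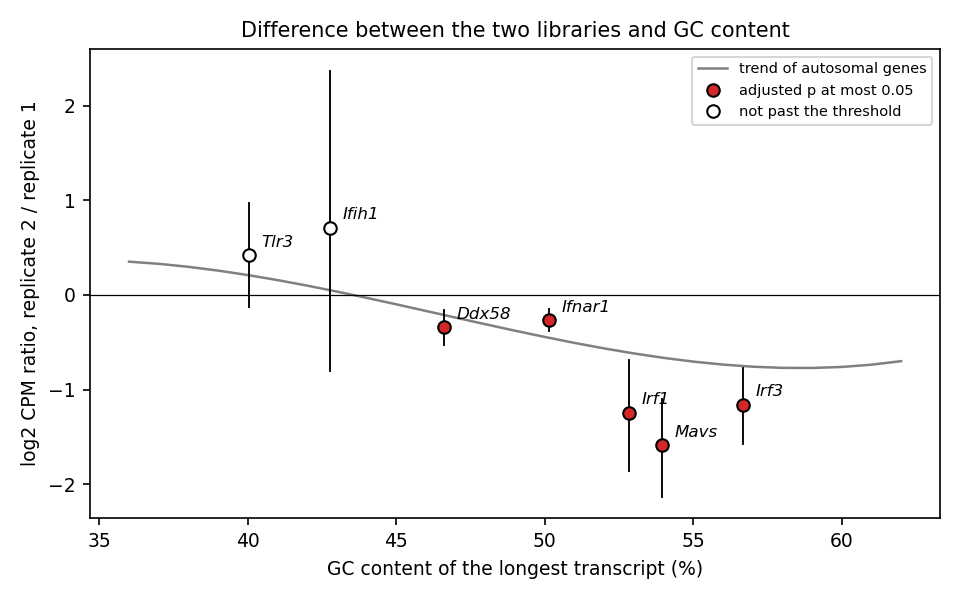
Log2 ratio of CPM, replicate 2 over replicate 1, against the GC content of each gene's longest transcript for the 7 members with counts, with 95% exact intervals as bars and the trend of autosomal genes as a grey line. Filled points differed between the libraries at an adjusted p of 0.05 before any GC correction. The members above 50% GC lie at −0.27 or below, and Tlr3 and Ifih1 lie above 0.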

How the data were processed

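The authors deposited 1 table of raw counts per gene, made by featureCounts 1.5.2 (per the file headers) in reverse-stranded, paired mode over transcript spans of mm10, introns included. Bowtie2 2.3.2 and STAR 2.4.2a are named in the submitters' processing notes. The count columns lack a letter that the sample descriptions carry and were matched by the rest of the name. Members and lists were chosen with earlier results of these data known. TPM was computed per library with the deposited span length or with the exon union of GENCODE M21 (22136 genes, 878 by an older symbol), and the 2 replicates were averaged, as the study's methods do.

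Replicates were compared by the exact binomial test (scipy 1.17.1) for each gene whose 2 counts summed to 10 or more, with Benjamini-Hochberg adjustment over all of them. Log2 ratios used CPM after adding 0.5 counts. Alternatives were TMM factors (edgeR 4.0.16), DESeq2 1.42.0 size factors and a polynomial of degree 3 in GC content, fitted on 9241 autosomal genes that had 50 or more counts per library. edgeR's quasi-likelihood test was not used because there is 1 group. The test was checked on simulated libraries that held counting error alone, apart from genes given known changes. They held no GC shift, so this check does not cover the wider differences seen between the replicates. Named genes were the members, the 2 genes of each pathway list with the highest mean span TPM outside the members, and genes at 0 counts. Cell type markers are named outside this rule. Other genes are marked as named after their values were seen. A gene that this rule would name is not reported here. Copies were sought as 50-base words shared with other genes' transcripts, and no member overlapped another gene on its strand. Sequences are from RefSeq (GRCm38.p6).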

Additional observations from a re-analysis of the deposited data

How the results depend on the processing

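Of 81 alternatives over 22 results, 61 were called the same. They kept their direction, their side of the threshold, a value within the replicate spread or, for counts of genes, a number within a factor of 1.5. Some of these were fixed in advance. For a single member's level, leaving out 1 of 2 replicates always stays within their spread. The pseudocount does not enter the p-value, and the levels of Irf7 and Isg15 stay at 0. The count of members that differed between the libraries was 5, beside 60.8% of all genes tested, and 2 with the GC trend, beside 45.6%. The median log2 ratio of the members, −0.34 with total counts, was −0.086 with TMM factors, −0.030 with DESeq2 size factors and −0.13 with the GC trend, while TMM and DESeq2 factors raise every log2 ratio by 0.26 and 0.31 by construction. The Ifnar1 log2 ratio turned from −0.27 to 0.044 with DESeq2 size factors and to 0.19 with the GC trend. The median level of the members ranged from 3.70 to 7.19 span TPM when replicate 1 or replicate 2 was left out, and the number at 1 TPM stayed at 6. Exonic length moved the levels of Ifnar1, Irf1, Irf3, Ifih1, Ddx58 and Tlr3 by more than the replicate spread. For single members, 6 log2 ratios kept their direction but were no longer past the threshold under another scaling, as was that of Ifnar1 with DESeq2 size factors, and 2, both of Tlr3, newly were. The cause was not tested. No paired analysis was possible because both libraries belong to 1 group. Depth limits Irf7, Isg15 and Ifih1, and with 2 libraries the SD rests on 1 difference.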
